A study of Mus musculus with 6 samples.

Results

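The 8 genes described here encode transcription factors of the somites and of the sclerotome: Uncx, Pax1, Pax9, Meox1, Meox2, Tcf15, Foxc1 and Foxc2. They were taken by name, as a set chosen with earlier results of these data known. Each was found on 1 line of a deposited table with 23233 usable gene lines. The samples are guts of mouse embryos at stage E10.5, 3 with a Ret null genotype, which the series calls homozygous (Ret is a receptor tyrosine kinase for GDNF family ligands), and 3 wildtype, all with the strain label C57BL/6J and described by the series as male. Neither the lesion of the null allele nor the number of embryos per sample is given in the labels. The table gives 1 FPKM value per genotype (fragments mapped to a gene, scaled by the authors for transcript length and sequencing depth). It gives no value per sample, so the spread between replicates cannot be shown and read depth is unknown.

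Somites are blocks of paraxial mesoderm that form along the neural tube, dorsal to the gut. Their ventral part becomes the sclerotome, which forms vertebrae and ribs under hedgehog signals from the notochord and floor plate, while the dorsal part becomes the dermomyotome, the source of trunk muscle. Foxc1 and Foxc2, Tcf15 and the Meox genes act early in somite formation, and Pax1, Pax9 and Uncx act later in the sclerotome. Several of these genes are also used elsewhere: Pax1 and Pax9 in pharyngeal pouch endoderm, and the Foxc genes in vessels, heart, kidney and head mesenchyme. None of them is a defining gene of the gut wall or of its nervous system.

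Tissue and genotype were checked first. Ret stood at 0.0354 FPKM in Ret null gut and 8.80 FPKM in wildtype gut. Gut endoderm and gut mesenchyme markers were present in both genotypes, with summed levels over 12 endoderm genes of 241 FPKM in Ret null and 114 FPKM in wildtype gut, and over 12 mesenchyme genes of 888 FPKM in Ret null and 407 FPKM in wildtype gut. No gene of either list was at 0. The values go against the description of all embryos as male: Xist, the X-linked RNA of female cells, was at 31.8 FPKM in Ret null and 0.136 FPKM in wildtype gut, and the Y-linked gene Kdm5d at 7.25 FPKM in Ret null and 13.7 FPKM in wildtype gut. Sex and genotype cannot be told apart in 1 value per genotype. The authors' Cuffdiff test was run on 13430 lines. A gene is said here to rise or fall only where the authors' deposited table has q (the p-value adjusted over those lines) under 0.05. Each ± is a standard error, obtained by dividing a log2 fold change by the authors' test statistic for that gene. The 95% intervals extend 1.96 such errors to either side. They assume a normal curve, which the authors' p-values do not follow. The authors' Cuffdiff p was 0.1225 for Meox2 and 0.00035 for Uncx. A normal curve gives p of 0.347 for Meox2 and 3.74e-08 for Uncx. The intervals are therefore approximate and are not those of the authors' test.

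Of the 8 genes, 7 had been tested by the authors and Pax9 had not. In Ret null gut 5 of the 7 tested genes fell (Uncx, Pax1, Meox1, Foxc1 and Foxc2), 0 rose and 2 did not pass (Meox2 and Tcf15). Over all tested lines 8.88% were called lower and 5.69% higher in Ret null gut, and among the 3232 tested lines within the wildtype range of these 7 genes (3.83 to 10.4 FPKM) 12.7% were called lower. None of the 7 was higher at an unadjusted p under 0.05 in the authors' Cuffdiff test. When p was instead read off a normal curve from the authors' statistic and adjusted (called the normal p below), the 5 falls still passed and 0 genes were higher, and 2.78% of all tested lines were called lower. The median log2 fold change of the 7 genes was -0.97, against 0.01 over all tested lines. Summed over the 8 genes, the level was 23.7 FPKM in Ret null gut and 50.6 FPKM in wildtype gut. In bulk samples like these, fewer cells of a type and less RNA per cell cannot be told apart.

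**Figure D1:**
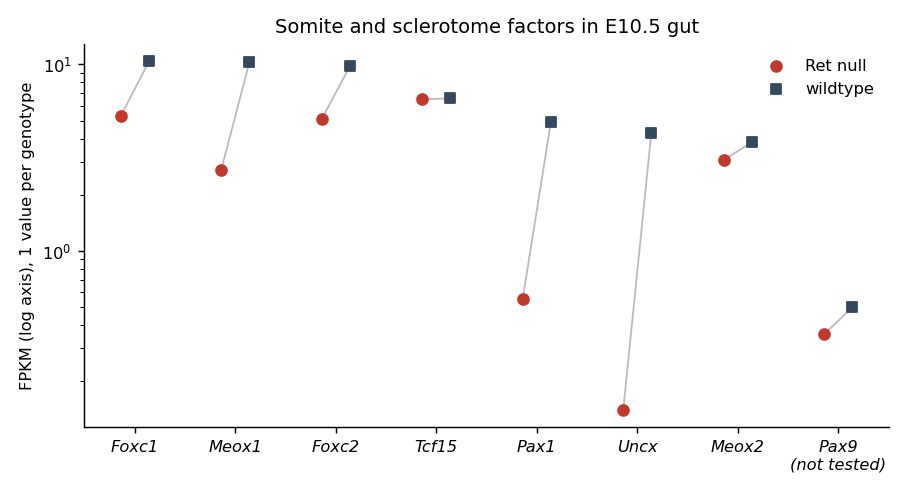
FPKM of the 8 genes on a log axis, ordered by their wildtype level, with 1 point per genotype (circles Ret null, squares wildtype). The Ret null value is the lower of the pair for all 8 genes, with the widest gap for Uncx and almost none for Tcf15.

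Where the paired genes are near copies of each other, a read could be placed on the wrong one. For the Foxc and Pax pairs the most similar stretch of coding sequence of 1 read length (75 bases) was therefore taken from GENCODE M21 transcripts (build GRCm38, the same as mm10). The sequences below are shown because they bear on how far the values of a pair can be told apart. Capitals mark the bases at which the members of a pair differ. The Foxc stretches, which encode part of the forkhead DNA-binding domain, lie in the only exon of each gene, at chr13:31807646-31807720 (Foxc1, plus strand) and chr8:121117032-121117106 (Foxc2, plus strand).
Foxc1: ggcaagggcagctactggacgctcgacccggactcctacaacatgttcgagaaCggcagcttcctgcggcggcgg
Foxc2: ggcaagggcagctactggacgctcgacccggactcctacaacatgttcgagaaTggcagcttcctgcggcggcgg
The Pax stretches encode part of the paired DNA-binding domain and each lie within 1 coding exon, at chr2:147366014-147366088 (Pax1, plus strand) and chr12:56696855-56696929 (Pax9, plus strand).
Pax1: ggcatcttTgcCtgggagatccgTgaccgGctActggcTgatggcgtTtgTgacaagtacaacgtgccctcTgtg
Pax9: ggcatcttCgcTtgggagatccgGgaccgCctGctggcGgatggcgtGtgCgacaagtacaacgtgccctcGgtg
The Foxc stretches differ at 1 base and the Pax stretches at 9. The longest exact run shared by the transcripts of a pair was 53 bases for Foxc1 and Foxc2 and 26 for Pax1 and Pax9. Of the 1585 windows of 75 bases in the Foxc1 coding sequence, 44 matched a Foxc2 window with 2 or fewer mismatches, and the Pax and Meox pairs had 0 such windows. In these windows single reads of Foxc1 and Foxc2 could be confused, and how the authors treated such reads is not given in the sources used here.

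Uncx, a homeodomain factor of the caudal sclerotome needed for the pedicles of the vertebrae and the proximal ribs, had the largest fold of the 8. It stood at 0.140 FPKM in Ret null gut and 4.31 FPKM in wildtype gut, which is 3.25% of the wildtype value. The log2 fold change was -4.94 ± 0.90 with q = 0.0042 in the authors' deposited table, a 30.7-fold fall with a 95% interval of 9.07-fold to 104-fold. Its Ret null value is near 0, so the size of the fold is the least certain among the 5 genes that fell, and on the log2(FPKM + 1) scale the difference was -2.22. Among the 13321 tested lines at 1 FPKM or more in either genotype, Uncx had the 13th lowest log2 fold change. Its line spans chr5:139543898-139548178, and GENCODE gives it 3 exons on the plus strand with no overlapping gene.

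Pax1, a paired-domain factor that promotes cartilage formation in the sclerotome and marks the future intervertebral discs, fell next most. The authors' values were 0.555 FPKM in Ret null gut and 4.91 FPKM in wildtype gut. The log2 fold change was -3.15 ± 0.50 with q = 0.000775 in the authors' deposited table, 8.85-fold lower with an interval of 4.48-fold to 17.5-fold. Its line spans chr2:147364994-147375048, with 5 exons in the longest coding transcript. The antisense gene AI646519 overlaps only a longer Pax1 model of GENCODE, and its own line in the table lies 2.20 kb from the Pax1 line. It was at 0.0550 FPKM in Ret null gut and 0.771 FPKM in wildtype gut and was not tested by the authors.

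Pax9, the closest relative of Pax1 and its partner in vertebral development, was near the floor of the table in both genotypes. It was listed at 0.357 FPKM in Ret null gut and 0.498 FPKM in wildtype gut, and no test was made. Wildtype Pax1 was 9.85 times the level of wildtype Pax9, while in Ret null gut Pax1 was 1.55 times the level of Pax9. FPKM is scaled to transcript length, so levels of different genes can be set side by side roughly, as far as the transcript models used are right. The Pax9 values and the Ret null Pax1 value were under 1 FPKM, and no error could be given for these ratios. The line spans chr12:56695639-56711230. The opposite-strand genes Gm15524 and Slc25a21 overlap only the longer Pax9 model of GENCODE, at chr12:56691767-56712822, and lie outside the span of the line.

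The upstream sequences of Pax1 and Foxc1 are shown because these are the genes that fell for which a RefSeq promoter window (GRCm38.p6) held bases outside the GENCODE exons of the gene. They begin 250 bases before the RefSeq start and end before the next exon base, at chr2:147364744-147364993 (Pax1, plus strand) and chr13:31806396-31806632 (Foxc1, plus strand), and capitals mark matches to CCAAT on either strand. GENCODE also has a Pax1 transcript that starts further upstream, at base 147361925, so the Pax1 stretch lies in an intron of that transcript.
Pax1: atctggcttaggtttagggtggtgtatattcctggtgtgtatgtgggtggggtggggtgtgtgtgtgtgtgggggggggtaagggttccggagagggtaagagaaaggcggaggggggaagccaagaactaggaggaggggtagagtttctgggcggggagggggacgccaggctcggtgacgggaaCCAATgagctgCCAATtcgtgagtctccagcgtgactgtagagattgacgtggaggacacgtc
Foxc1: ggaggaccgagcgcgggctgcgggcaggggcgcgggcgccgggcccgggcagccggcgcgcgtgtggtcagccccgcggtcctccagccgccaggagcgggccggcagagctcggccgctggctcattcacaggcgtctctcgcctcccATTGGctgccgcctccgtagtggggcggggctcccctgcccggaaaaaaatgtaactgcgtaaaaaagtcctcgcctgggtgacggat
The Pax1 sequence held 2 matches to CCAAT and the Foxc1 sequence 1, and 33.8% of 32851 mouse windows of 250 bases held at least 1. TATAAA (in 12.4% of windows), the homeodomain core TAATTA (4.84%), the Gli motif GACCACCCA (0.225%) and the bHLH motif CAGCTG (13.0%) were searched on both strands and matched neither sequence. These matches describe the letters only. GC content of the full 250 bases was 58.8% for Pax1 and 70.8% for Foxc1, with a median of 52.4% over all windows.

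The Meox genes encode a pair of homeodomain factors with shared roles in somite patterning. Meox1 was at 2.73 FPKM in Ret null gut and 10.3 FPKM in wildtype gut. Its log2 fold change was -1.91 ± 0.33 with q = 0.000775 in the authors' deposited table, 3.77-fold lower with an interval of 2.42-fold to 5.88-fold. Meox2, which is also known from limb muscle and vascular cells, was at 3.07 FPKM in Ret null gut and 3.83 FPKM in wildtype gut. It did not pass in the authors' deposited table (q = 0.388), at -0.32 ± 0.34 on the log2 scale, and its interval of -0.99 to 0.35 also covers the value of Foxc1. The log2 fold change of Meox1 was lower than that of Meox2 by a difference of -1.59 (95% interval -2.52 to -0.67, taking the errors of the genes as independent). The level of Meox1 relative to Meox2 was 0.890 in Ret null gut and 2.69 in wildtype gut. With no value per sample, it cannot be said whether Meox1 was truly below Meox2 in Ret null gut. Meox1 lies at chr11:101877510-101894354 and Meox2 at chr12:37108546-37179528, each with 3 exons.

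Tcf15 (paraxis), the basic helix-loop-helix factor needed for somites to become epithelial, had the smallest difference of the 8. It was at 6.49 FPKM in Ret null gut and 6.58 FPKM in wildtype gut, a log2 fold change of -0.02 ± 0.34, and the authors' deposited table gives q = 0.983. The interval of -0.70 to 0.66 still allows a level up to 1.62-fold lower in Ret null gut. It had the highest level of the 8 in Ret null gut and the fourth highest in wildtype gut. Its line spans chr2:152143609-152149096, on the same chromosome as Pax1, with 2 exons and no overlapping gene.

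Foxc1 and Foxc2, forkhead factors with overlapping functions in somite, heart and vessel formation, fell by almost the same amount. Foxc1 was at 5.29 FPKM in Ret null gut and 10.4 FPKM in wildtype gut (log2 fold change -0.97 ± 0.21, 1.96-fold lower). Foxc2 was at 5.09 FPKM in Ret null gut and 9.79 FPKM in wildtype gut (log2 fold change -0.94 ± 0.24, 1.92-fold lower). Both had q = 0.000775 in the authors' deposited table. Their fold changes differed by -0.03 on the log2 scale (95% interval -0.66 to 0.60), and Foxc1 was at 1.04 times the level of Foxc2 in Ret null gut and 1.06 times in wildtype gut. The sequences printed above show that part of their coding region is nearly identical, so these 2 measurements may not be fully separate. Only 44 of 1585 windows of 75 bases were within 2 mismatches, and whether reads were in fact confused was not tested. The Foxc1 line spans chr13:31806646-31810635 and the Foxc2 line chr8:121116171-121118894, and both genes have a single exon. GENCODE gives Foxc1 a transcript of 5844 bases, longer than the 3990 bases spanned in the table. The long gene model Gm20388 runs across Foxc2 on the same strand.

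**Figure D2:**
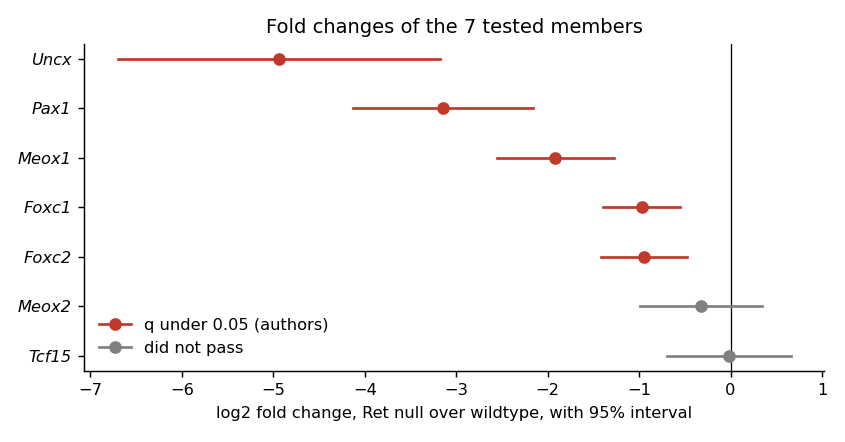
Log2 fold change (Ret null over wildtype) of the 7 tested genes with its 95% interval. The intervals of Uncx, Pax1, Meox1, Foxc1 and Foxc2 lie wholly below 0, and those of Meox2 and Tcf15 cover it.

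The order of the levels differed between genotypes. In Ret null gut it ran Tcf15, Foxc1, Foxc2, Meox2, Meox1, Pax1, Pax9 and Uncx. In wildtype gut it ran Foxc1, Meox1, Foxc2, Tcf15, Pax1, Uncx, Meox2 and Pax9. Uncx, sixth in wildtype, was last in Ret null gut, below Pax9. With no spread over samples, it cannot be said which neighbours in these orders differ. All 7 tested genes were modest in level, between the 22nd and 46th percentile of tested lines in wildtype gut. In Ret null gut Uncx stood at percentile 0.171 and Pax1 at 1.04 of the same lines. The q of Pax1, Meox1, Foxc1 and Foxc2 is the smallest in the authors' deposited table, where 867 lines share the smallest p of 5e-05, so it does not rank these 4 genes.

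**Figure D3:**
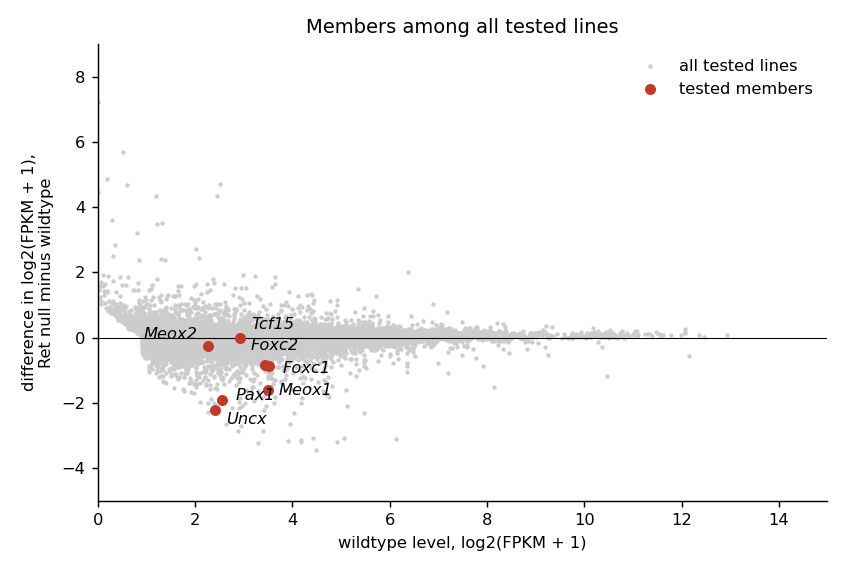
Difference in log2(FPKM + 1), Ret null minus wildtype, against the wildtype level in log2(FPKM + 1), for all 13430 tested lines (grey) and the 7 tested genes (red). Uncx, Pax1 and Meox1 lie at the lower edge of the cloud at their level, Foxc1 and Foxc2 within its lower part, and Tcf15 and Meox2 near 0.

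The tested genes most like each of the 5 in level and change were taken by distance in log2(FPKM + 1) over the 2 genotype values, as a description. Nearest to Uncx were Mybph, a muscle myosin-binding protein gene (0.209 FPKM in Ret null, 3.81 FPKM in wildtype), and Calb1, a calbindin gene of the nephric duct (0.300 FPKM in Ret null, 4.25 FPKM in wildtype). Mybph did not pass (q = 0.237 in the authors' deposited table). For Pax1 the nearest were the myogenic regulator gene Myod1, at 0.456 FPKM in Ret null and 4.79 FPKM in wildtype gut, and the neuropeptide gene Gal. Among the nearest to Meox1 was Sox10, which marks enteric neural crest cells and is not a somite gene. The nearest to Foxc1 were Foxn3 and Gatm, and to Foxc2 Scube1 and Me1. With 2 values per gene such likeness says little beyond a shared level and fold.

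None of the tested genes beside the members on the chromosome was called lower. For each member the 3 lines on either side in the table were taken, 48 lines in all, of which the authors had tested 30. Of these 7 rose, 0 fell and 23 did not pass. Over all tested lines 5.69% were called higher and 8.88% lower. At an unadjusted p under 0.05 in the authors' Cuffdiff test 2 of the neighbours were lower. Besides the 7 that rose, Nkx2-2, 1700018A04Rik and Wrnip1 were higher at that limit. With the normal p 0 were lower and 6 higher. Most of the rises were in the forkhead clusters. Foxf2, 175 kb from Foxc1 and a gene of gut mesenchyme, rose to 51.7 FPKM in Ret null gut, against 19.9 FPKM in wildtype gut (1.38 ± 0.17 on the log2 scale). Foxq1, 246 kb away, was at 2.72 FPKM in Ret null and 1.28 FPKM in wildtype gut and rose by 1.08 ± 0.40 (q = 0.00206 in the authors' deposited table).

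The cluster around Foxc2 showed the same split. Foxf1, 28.0 kb away and a hedgehog-responsive gene of gut mesenchyme, was at 124 FPKM in Ret null and 51.3 FPKM in wildtype gut, a rise of 1.28 ± 0.16 on the log2 scale. Fendrr, a long noncoding RNA gene beside Foxf1, rose by 0.91 ± 0.17. Foxl1, 8.79 kb to the other side of Foxc2, was at 6.13 FPKM in Ret null and 1.92 FPKM in wildtype gut, a rise of 1.68 ± 0.32. Mthfsd, between Foxf1 and Foxc2, had a log2 fold change of -0.04 ± 0.24 and did not pass. The remaining risers were endodermal forkhead genes at a greater distance: Foxa2, 668 kb from Pax1 (2.42 ± 0.40), and Foxa1, 829 kb from Pax9 (1.89 ± 0.23). Around Uncx, Meox1, Meox2 and Tcf15, 0 of the tested neighbours were called.

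**Figure D4:**
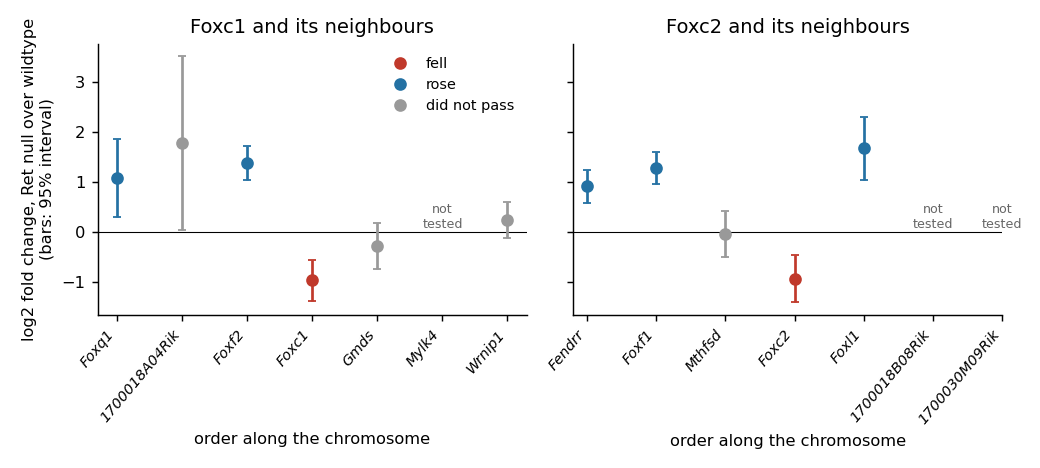
Log2 fold change (Ret null over wildtype) of Foxc1, Foxc2 and the 3 lines on either side of each in the table, in chromosome order, with 95% intervals. Foxc1 and Foxc2 lie below 0 while Foxf2, Foxq1, Fendrr, Foxf1 and Foxl1 lie above it.

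Other genes of the somite lineages are given from lists, without the 8 members. Of 13 tested genes of sclerotome and axial cartilage 6 fell and 2 rose, with a median of -0.33 on the log2(FPKM + 1) scale, against 0.01 over all tested lines. The falls included Foxd1 (-1.12 ± 0.22) and the cartilage matrix genes Hapln1 (-0.83 ± 0.22) and Col2a1 (-0.79 ± 0.20). Smaller falls were in Col9a1, Sox6 and Sox5. Which tissue these transcripts came from, Foxd1 included, cannot be told in bulk samples. The cartilage matrix gene Matn4 rose (0.60 ± 0.27; 7.63 FPKM in Ret null gut, 5.04 FPKM in wildtype gut), and Col9a2 did not pass (22.1 FPKM in Ret null, 24.3 FPKM in wildtype). Nkx3-2, which Pax1 and Pax9 activate in the sclerotome and which is also a gene of stomach and gut mesenchyme, rose to 11.8 FPKM in Ret null gut, against 6.74 FPKM in wildtype gut (0.81 ± 0.27). Sox9, the central regulator of cartilage, was at 9.91 FPKM in Ret null and 11.2 FPKM in wildtype gut and did not pass. With the normal p 3 genes of this list were lower and 0 higher.

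Dermomyotome and myotome genes held more falls. Of 12 tested 7 fell and 0 rose, with a median of -0.95, and 1 was higher at an unadjusted p under 0.05. With the normal p 6 were lower and 0 higher. Myog was at 1.07 FPKM in Ret null and 17.0 FPKM in wildtype gut, Myod1 at the values given above, and Alx4 at 0.910 FPKM in Ret null and 6.47 FPKM in wildtype gut. Dmrt2, a dermomyotome gene needed for the early myotome, fell by 1.83 on the log2 scale. Pax3, Pax7 and Myf5 were each under 1 FPKM in both genotypes and were not tested. Contractile genes of skeletal muscle fell in 13 of 15 tested cases, with a summed level over 17 genes of 35.0 FPKM in Ret null and 272 FPKM in wildtype gut.

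Genes of the presomitic mesoderm, from which somites bud, moved both ways. Of 9 tested 3 fell and 2 rose (median -0.11), and with the normal p 1 was lower and 1 higher. Wildtype levels of the tested genes reached 14.2 FPKM, for Epha4 (12.8 FPKM in Ret null gut, no call). Tbx18, the factor of the cranial somite compartment opposite to Uncx, fell by 1.18 on the log2 scale. It was at 1.78 FPKM in Ret null gut and 4.03 FPKM in wildtype gut. The Notch ligand gene Dll1 rose by 0.68. Cyp26a1 rose by 2.18, at 1.67 FPKM in Ret null gut and 0.369 FPKM in wildtype gut. Tbx18 is also a gene of mesothelium. Msgn1 was listed at 0 in both genotypes, and Mesp1, Mesp2, Hes7, Ripply1 and Ripply2 were under 1 FPKM in both. Of 10 tested genes of notochord and midline signals, 4 rose and 0 fell. At an unadjusted p under 0.05 in the authors' Cuffdiff test 0 were lower and 6 higher. With the normal p 0 were lower and 4 higher. The 4 that rose were Foxa2, Shh, Gli1 and Hhip, all of which gut endoderm or mesenchyme also expresses. The notochord genes T and Noto were under 1 FPKM in both genotypes.

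**Figure D5:**
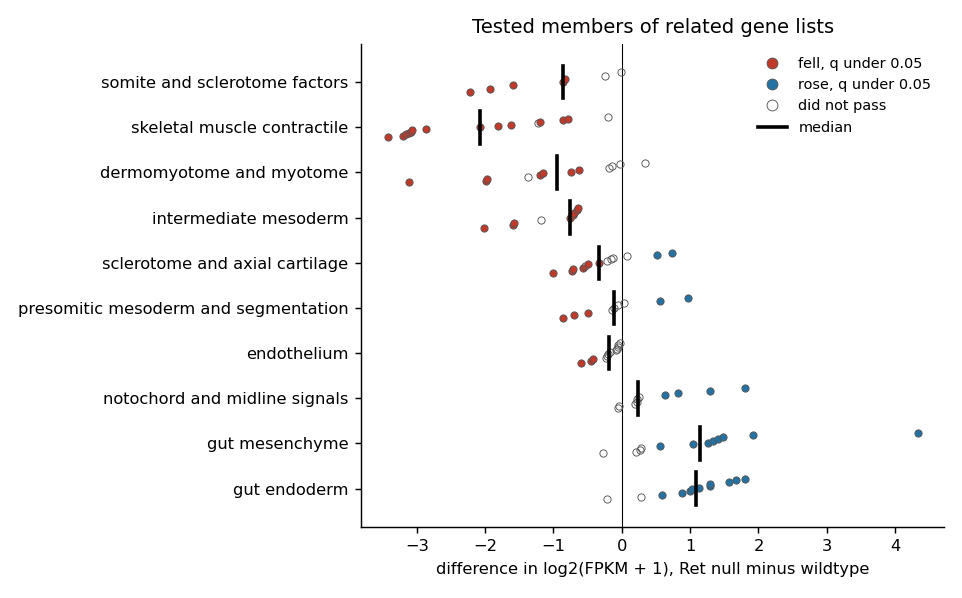
Difference in log2(FPKM + 1), Ret null minus wildtype, for tested genes of the 8 factors and of 9 related lists, with 1 point per gene (filled where the authors' deposited table has q under 0.05) and a bar at the median. The median of the somite factors (-0.85) lies between those of the dermomyotome (-0.95) and intermediate mesoderm (-0.76) lists, while those of gut mesenchyme and endoderm lie above 0.

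The families of the members were counted as well. In the Pax family only Pax2 and Pax8, genes of the nephric lineage, were tested besides Pax1, and both fell (-2.43 ± 0.46 and -1.16 ± 0.48), of which 1 passed with the normal p. Of 5 tested genes of the Fox classes C, D and F without the members, Foxd1, Foxd2 and Foxd3 fell and Foxf1 and Foxf2 rose, with 2 lower and 2 higher by the normal p. Among 7 tested basic helix-loop-helix relatives of Tcf15, Twist1 (-0.97 ± 0.18) and Twist2 fell, Tcf21 and Hand2 rose and 3 did not pass, and by the normal p 1 was lower and 1 higher. The tendon gene Scx, the nearest relative of Tcf15, was at 9.47 FPKM in Ret null and 12.7 FPKM in wildtype gut and did not pass (q = 0.656 in the authors' deposited table).

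Markers of other tissues that express members, or that lie beside the gut, moved as well. Of 9 tested intermediate mesoderm genes 8 fell and 0 rose. With the normal p 5 were lower and 0 higher, and 0 were higher at an unadjusted p under 0.05. Their summed level over 10 genes was 41.9 FPKM in Ret null and 89.9 FPKM in wildtype gut. All 5 tested genes of the head mesenchyme and eye list fell, among them Alx1, and 3 were lower with the normal p. In the pharyngeal pouch list 3 of 6 tested genes fell, Eya1 and Tbx1 among them, and Nkx2-5 rose, and the pouch markers Gcm2 and Foxn1 were at 0 and near 0. With the normal p 1 gene of the pouch list was lower and 1 higher. Of 12 tested endothelial genes 3 fell (Emcn, Tek and Kdr) and 0 rose, 0 of them higher at an unadjusted p under 0.05, and 0 were called in either direction with the normal p. Their summed level was 200 FPKM in Ret null and 235 FPKM in wildtype gut. The parts of these tissues in the fall of the somite factors were not tested.

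In the same values 10 of 12 gut endoderm and 8 of 12 gut mesenchyme genes rose, with 0 falls in each. At an unadjusted p under 0.05 in the authors' Cuffdiff test 0 endoderm genes were lower and 11 higher, and 1 mesenchyme gene was lower and 10 higher. With the normal p 0 of either were lower, and 9 endoderm and 8 mesenchyme genes were higher. Of 12 hepatic genes 9 rose, with a summed level of 319 FPKM in Ret null and 25.3 FPKM in wildtype gut. Of 10 tested enteric neural crest genes 8 fell, Ret included. Limb and lateral plate genes (3 of 10 tested fell, 3 rose) and tendon and connective tissue progenitor genes (2 of 10 fell, 3 rose) moved both ways. With the normal p 1 gene was lower in each of these lists, while 3 limb and 2 tendon list genes were higher. How far these shifts bear on the values of the somite factors was not tested.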

How the data were processed

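RNA of 3 Ret null and 3 wildtype gut samples was sequenced as paired reads of 75 bp. Per the submitters' processing notes, the tools included TopHat2, Cufflinks, Cuffdiff and Picard and the build was mm10; versions and annotation were not given in the sources used here. A table that the authors deposited holds an FPKM value per genotype. The authors also deposited the test statistic (a score), a p-value and a q-value for each gene, per the file headers. The letters w and h that name the genotypes there were taken to mean wildtype and Ret null, and Ret is near 0 under h.

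Of 23234 lines 1 was malformed and left out, and 13430 were tested by the authors. Log2 fold changes (Ret null over wildtype) were calculated from FPKM with no pseudocount unless stated, and log2(FPKM + 1) was used for list medians. The implied standard error is the log2 fold change divided by the test statistic. The test was the authors' q under 0.05, with p-values measuring only the spread between these samples, which may be technical. Starts were raised by 1. Of 220 list entries, 219 were found, some in several lists. Named genes were the 8 members, Ret, up to 4 called genes of each list (lowest q first, ties by size of change; the 2 most abundant where none was called), and the 2 genes nearest to each called member; any others, among them the chromosome neighbours and the sex-linked genes, were chosen after values were seen. Some items that these rules take in are not reported here. The members and lists were chosen with earlier results of these data known. Python 3.11.15, pandas 2.3.3 and scipy 1.17.1 were used, and the calculations were tested on simulated data.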

Additional observations from a re-analysis of the deposited data

How the results depend on the processing

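With 14 alternatives (q under 0.01 or 0.1, minimum levels, a 1.5-fold minimum, the normal p, adjustment over expressed lines, 3 pseudocounts, 3 scalings, and repeated symbols left out), the 8 fold changes kept their direction wherever a value could be had. Calls could change only with the other q limits, the minimums, the normal p and the adjustment over expressed lines, and none of the 7 tested genes crossed the limit there, apart from genes that a minimum left out. The pseudocounts, the scalings and the removal of repeated symbols kept the authors' q, so they do not test the calls. The scalings moved log2 values by up to 0.0521. A minimum of 5 FPKM left 3 falls among the somite factors instead of 5, since Uncx and Pax1 lie under it (as does Meox2, which was not called), and 36 falls in the lists instead of 60. Over the alternatives log2 fold changes ran from -4.99 to -0.86 for Uncx, -3.20 to -0.83 for Pax1, -1.97 to -0.98 for Meox1, -1.02 to -0.58 for Foxc1 and -0.995 to -0.552 for Foxc2, with the smallest sizes at 5 FPKM added. Among all tested lines 374 were lower with the normal p, against 1192, and 231 were higher, against 764. No paired analysis was possible because the table holds no value per sample, and for the same reason no replicate could be left out. Depth is unknown, so values under 1 FPKM are the least certain.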
